A study of Homo sapiens with 2 samples.

Results

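The EGF receptor family and its ligands were followed here in a gastric cancer cell line with and without WTX overexpression. The group was defined by 10 gene symbols, which are the 4 receptors EGFR, ERBB2, ERBB3 and ERBB4 and the 6 ligands EGF, AREG, EREG, HBEGF, TGFA and BTC. Its members were the probe sets of the array, each a group of probes that reads a transcript, that the platform annotation assigned to a single member symbol. This gave 33 of 54613 probe sets, for 9 of the 10 genes, and AREG had none assigned and was not analysed here.

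AGS is a line derived from a gastric adenocarcinoma. AGS.W cells carried a lentiviral vector with the WTX (AMER1) coding region and were labelled as the overexpression group, whereas AGS.veh cells were the negative control group. The stable overexpression line came from lentiviral infection and puromycin selection. How AGS.veh was made is not given in the sources used here, nor whether either line is a clone. Each line gave RNA for a single Affymetrix U133 Plus 2.0 array. Replicates are lacking, so no p-value or standard error accompanies the values below, each difference is between 2 cultures, and precision is limited by the number of arrays. Values are log2 signals, a difference is AGS.W minus AGS.veh on that scale, and a difference of 1 is 2-fold.

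The receptors of this family are transmembrane tyrosine kinases that pair with each other after a ligand binds. EGF, TGFA and AREG bind EGFR, while HBEGF, EREG and BTC bind EGFR and ERBB4. ERBB2 has no known ligand of its own and serves as a partner of the other receptors, and ERBB3, which binds neuregulins, has a weak kinase and signals mainly through such partners to PI3K and AKT. The ligands are made as membrane-bound precursors and are released by ADAM proteases. The family is a source of growth signals in gastric epithelium and is often altered in gastric cancer.

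Both arrays had nearly the same median log2 signal, 4.02 for AGS.W and 4.03 for AGS.veh. A probe set that reached the median of its array on at least 1 array is said here to pass the signal filter. By its brightest probe set, 12811 of 19775 genes passed. Counts of passing markers are to be read beside that share and do not by themselves tell which cell types were present. Of epithelial markers, 7 of 10 passed, with KRT8 at 9.76 (AGS.W) and 10.1 (AGS.veh) and EPCAM at 6.88 and 5.96, while CDH1, KRT19 and ESRP1 lay below the median on both arrays. The labels also name parietal cortex as the source of the RNA. Of 11 measured brain markers 6 passed, and GFAP, the defining marker of astrocytes, lay below the median on both arrays, at 3.44 (AGS.W) and 2.97 (AGS.veh). Well above the median on both arrays were GAD1, an enzyme of GABA synthesis, at 7.06 and 7.11, and MBP, a myelin protein, at 6.10 and 6.19. These are the values of their brightest probe sets. GAD1 had 3 probe sets and MBP 9, and for either gene 2 besides the brightest passed the filter. SNAP25, a protein of synaptic vesicle fusion, read 5.15 and 3.57, or 2.98-fold higher in AGS.W. It was the only marker of these 5 lists at least 2-fold apart. It passed the filter through AGS.W alone, and the mean difference of its 3 probe sets was 0.85, below 2-fold. Summed over each list, the log2 of the signal was 11.8 (AGS.W) and 12.2 (AGS.veh) for epithelium, 8.49 and 8.34 for brain, 8.29 and 7.56 for fibroblasts, 5.59 and 5.49 for leukocytes and 6.03 and 5.95 for endothelium. Of 6 fibroblast markers 4 passed, and COL1A1 made up most of their sum, at 7.89 (AGS.W) and 6.95 (AGS.veh) on its brightest probe set. The mean difference over its 5 probe sets was 0.29. Of 4 measured leukocyte markers 1 passed, CD3E, at 4.39 (AGS.W) and 4.42 (AGS.veh). PTPRC, their defining marker, lay below the median on both arrays. Of 5 endothelial markers 2 passed, PECAM1 at 4.83 (AGS.W) and 4.64 (AGS.veh) and CLDN5 at 4.09 on both arrays. What part other cell types had in the differences below was not tested. AMER1 had 1 probe set, which read 3.70 (AGS.W) and 3.86 (AGS.veh), below both medians. Its place relative to the coding region in the vector is not known here, and it therefore cannot serve as a check of the labels. An identical value on both arrays was found for 12.6% of all probe sets, and 4 of the 33 probe sets of the family were among them.

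ERBB3 showed the largest difference of the family. Its brightest probe set, 226213_at, read 7.87 in AGS.W against 5.99 in AGS.veh on the log2 scale, which is a difference of 1.88 or 3.68-fold. A further probe set, 202454_s_at, had 5.76 in AGS.W and 4.27 in AGS.veh, a difference of 1.49 or 2.80-fold. Both probe sets lay above the median on both arrays and were higher in AGS.W. The other 3 ERBB3 probe sets were dim, and each was also higher in AGS.W, by differences of 0.38 for 1563253_s_at, 0.20 for 1563252_at and 0.42 for 215638_at. Of these, 1563253_s_at passed the signal filter through AGS.W alone. As the mean of its 5 probe sets, dim ones included, ERBB3 had a difference of 0.87, which is below 2-fold. By its brightest probe set ERBB3 ranked 33 from the highest among the 12811 genes that passed the filter, where the brightest probe set stands for a gene. In RNA of a whole culture, more cells that express a gene and more RNA per cell cannot be told apart.

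At least 2-fold differences were seen on 2 of the 13 probe sets of the family that passed the signal filter, both of ERBB3. Of all probe sets that passed it, 3.80% were at least 2-fold apart in either direction and 1.90% were higher by that much in AGS.W. Counted as genes, 1 of the 4 with a probe set past the filter was 2-fold apart, beside 3.78% of all genes past it (1.83% higher and 1.94% lower in AGS.W). The 2 probe sets read the same gene, so they are not separate members. Of the probe sets of the family past the filter, those nearest below the threshold were 224999_at of EGFR, with a difference of -0.84, and 201984_s_at of EGFR, with 0.78.

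**Figure D1:**
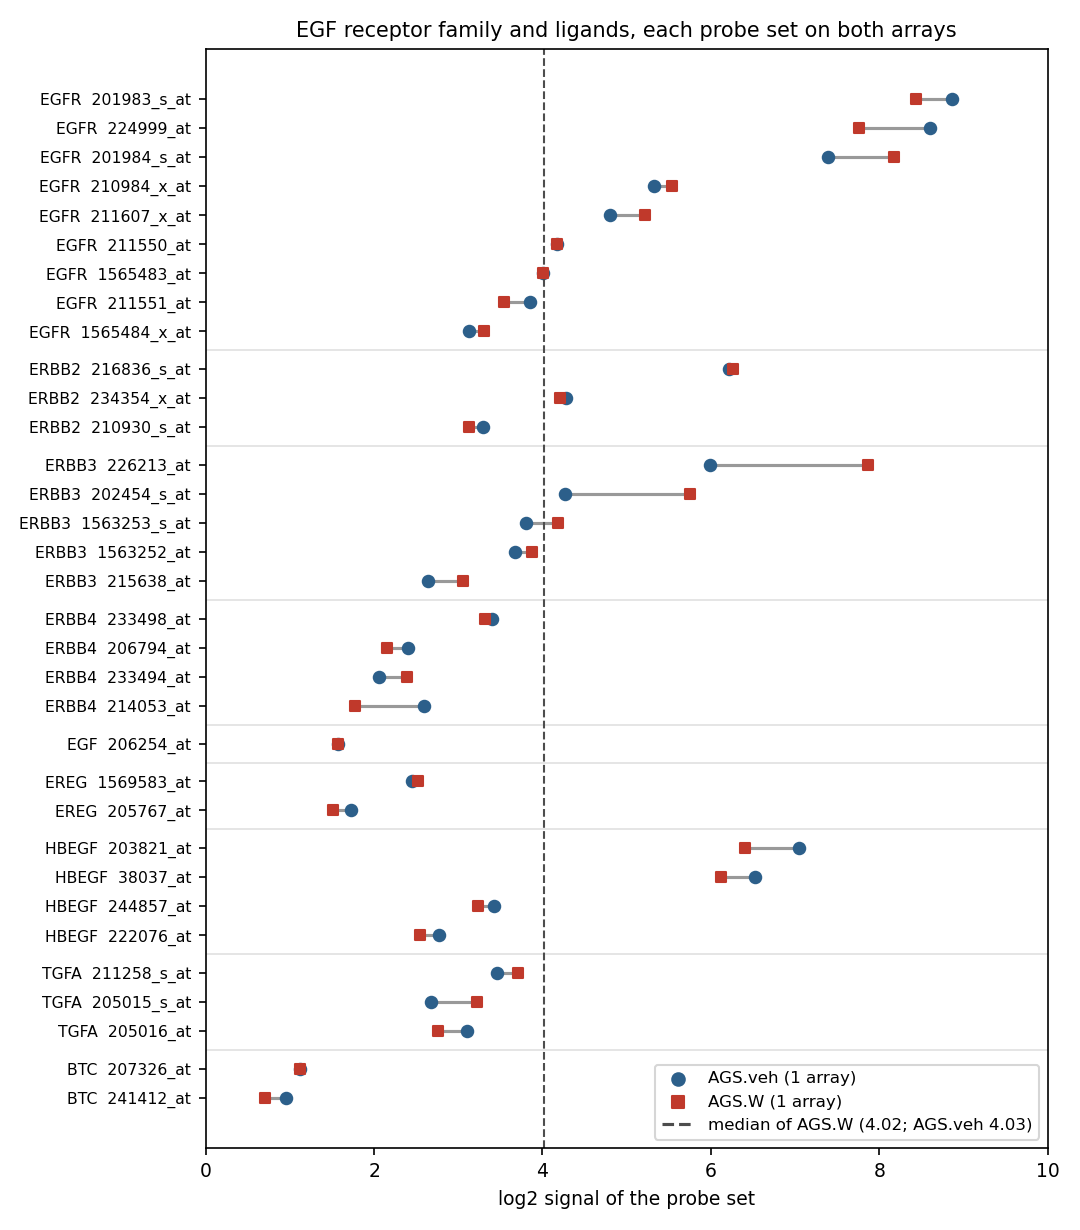
Log2 signal (horizontal axis) of each of the 33 probe sets on the AGS.veh array (circles) and the AGS.W array (squares), grouped by gene and ordered by mean signal within a gene. The dashed line is the median of the AGS.W array. The 5 ERBB3 probe sets all lie further right in AGS.W, the 4 HBEGF probe sets further left, and those of EGFR go in both directions.

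EGFR, the receptor of EGF, was read by 9 probe sets, and they did not share a direction. The probe set of highest mean signal, 201983_s_at, had 8.44 in AGS.W and 8.86 in AGS.veh, a difference of -0.42. For 224999_at the values were 7.76 and 8.60, a difference of -0.84 or 1.79-fold lower in AGS.W. In contrast, 201984_s_at had 8.18 in AGS.W and 7.39 in AGS.veh, a difference of 0.78 or 1.72-fold higher. The 3 bright probe sets of EGFR thus gave opposite answers on the same arrays. Of the remaining 6, 2 had identical values on both arrays, 3 were higher in AGS.W by up to 0.41 and 1 was lower by a difference of -0.31. The mean over all 9 was a difference of 0.00. Over the 6 EGFR probe sets that reached the median on both arrays the differences spanned 1.62 log2 units. Among the 83 genes with as many such probe sets the median span was 0.67, and 95.2% of them had a smaller span than EGFR. No direction is given for EGFR as a gene for this reason. Which parts of the transcript each probe set reads was not settled here.

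RefSeq lists 2 starts for EGFR, 90822 bases apart, and the 250 bases before each are shown because the probe sets of this gene disagreed. The array does not tell which start a transcript came from. The 250 bases before the start of HBEGF are shown beside them, since HBEGF was the single ligand gene whose probe sets passed the signal filter. Sequences are of build GRCh38.p14, 5′ to 3′ on the strand of the gene, with capitals at matches on either strand to the GC box GGGCGG, the TATA box TATAAA and the AP-1 site TGANTCA.
EGFR, first start, chr7:55018767-55019016, plus strand: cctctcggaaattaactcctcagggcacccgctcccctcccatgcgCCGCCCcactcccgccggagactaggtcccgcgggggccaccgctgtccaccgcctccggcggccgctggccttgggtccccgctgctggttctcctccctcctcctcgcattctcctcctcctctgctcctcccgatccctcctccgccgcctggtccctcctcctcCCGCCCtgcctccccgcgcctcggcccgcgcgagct
EGFR, second start, chr7:55109589-55109838, plus strand: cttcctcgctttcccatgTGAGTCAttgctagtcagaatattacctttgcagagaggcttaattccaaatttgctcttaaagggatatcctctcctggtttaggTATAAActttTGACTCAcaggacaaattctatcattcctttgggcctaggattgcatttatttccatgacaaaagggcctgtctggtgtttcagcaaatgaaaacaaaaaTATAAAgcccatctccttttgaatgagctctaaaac
HBEGF, chr5:140346604-140346853, minus strand: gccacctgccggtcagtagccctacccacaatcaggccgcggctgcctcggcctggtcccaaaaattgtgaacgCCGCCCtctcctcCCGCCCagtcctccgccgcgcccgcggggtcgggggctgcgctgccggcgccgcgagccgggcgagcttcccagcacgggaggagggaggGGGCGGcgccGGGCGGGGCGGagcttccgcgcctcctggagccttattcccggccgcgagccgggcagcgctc
The first EGFR window held 2 GC boxes and was 73.6% G and C, while the second held none, with 38.8% G and C, 2 TATA boxes and 2 AP-1 sites. The HBEGF window held 5 GC boxes, of which a pair overlap by 1 base, and was 76.4% G and C. Of all 35116 windows of this length in the table, 42.6% held a GC box, 10.7% a TATA box and 6.57% an AP-1 site, and the median share of G and C was 58%. The table held windows for 9 of the 10 genes, ERBB3 not among them. Over the 11 windows of these 9 genes, 5 held a GC box, 3 a TATA box and 3 an AP-1 site, and a match of letters is not evidence of binding.

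ERBB2, the partner receptor without a ligand, had nearly equal signals in both lines. Its brightest probe set, 216836_s_at, had 6.27 in AGS.W and 6.21 in AGS.veh, a difference of 0.06. The others, 234354_x_at and 210930_s_at, had differences of -0.07 and -0.17, the second of them from a signal below the median on both arrays. ERBB4, the receptor shared by HBEGF, BTC and the neuregulins, lay below the median on both arrays for all of its 4 probe sets. Their signals were between 1.78 and 3.32 in AGS.W and between 2.06 and 3.40 in AGS.veh. The largest ERBB4 difference was -0.82 for 214053_at, from 1.78 in AGS.W and 2.60 in AGS.veh, where signal may be background.

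Among the ligands, HBEGF, the heparin-binding member, was lower in AGS.W on all 4 of its probe sets. The brightest, 203821_at, had 6.40 in AGS.W and 7.04 in AGS.veh, a difference of -0.65 or 1.56-fold lower. For 38037_at the signals were 6.12 and 6.52, a difference of -0.40 or 1.32-fold lower. The dim 244857_at and 222076_at had -0.18 and -0.22, from signals below the median on both arrays that may be background. None of these reached 2-fold. The robust spread of differences over all probe sets of similar signal (from the median absolute deviation) was 0.38 for 203821_at and 38037_at. It was also 0.38 for 226213_at of ERBB3. For 244857_at and 222076_at it was 0.27 and 0.30, larger than their differences. This spread is across genes and does not stand in for replicate error.

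EGF, EREG, TGFA and BTC lay below the median on both arrays for each of their 8 probe sets. TGFA, a ligand that many epithelial tumours make, read 3.70 in AGS.W against 3.47 in AGS.veh on 211258_s_at, a difference of 0.24, with 0.55 on 205015_s_at and -0.35 on 205016_at. EREG had 2.52 (AGS.W) and 2.45 (AGS.veh) on 1569583_at and 1.51 and 1.73 on 205767_at. EGF read 1.58 and BTC 1.12 on both arrays on their brightest probe sets, and the other probe set of BTC had 0.71 in AGS.W and 0.95 in AGS.veh. At such signals these arrays cannot show whether a transcript differed between the lines. In all, 20 of the 33 probe sets of the family lay below the median on both arrays.

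**Figure D2:**
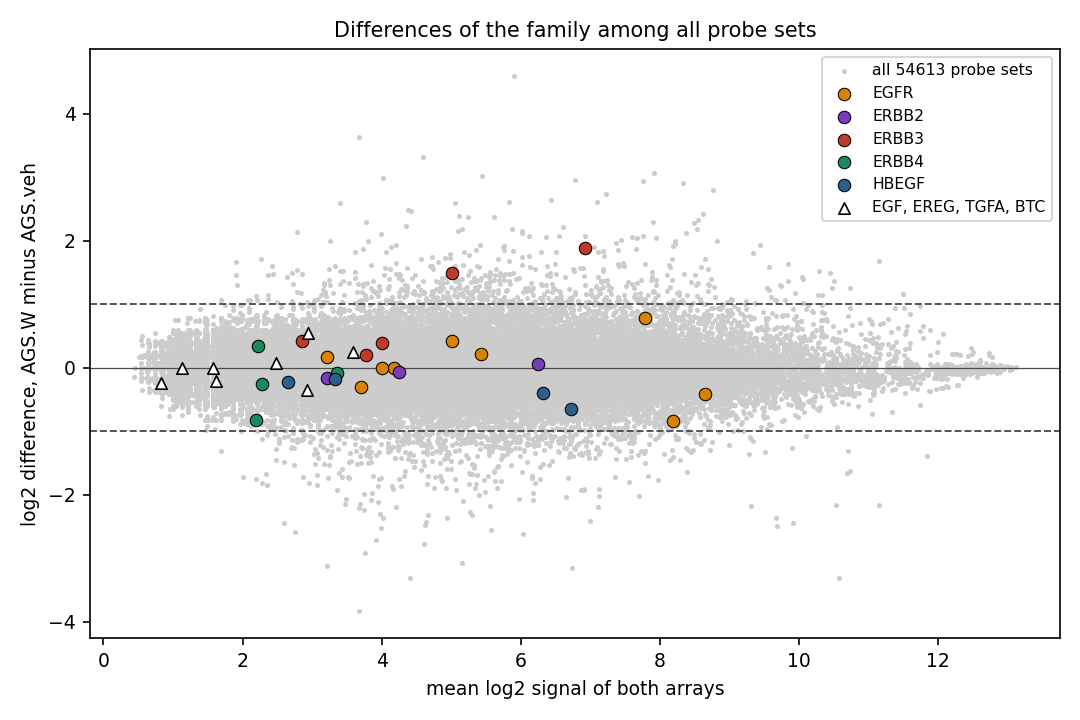
Log2 difference AGS.W minus AGS.veh (vertical axis) against the mean log2 signal of both arrays (horizontal axis) for all 54613 probe sets (grey) and those of the family (coloured circles, and triangles for the dim ligands), with 1 array per line. Dashed lines mark 2-fold. ERBB3 has 2 points above the upper line, at 1.88 and 1.49, and no other member passes either line.

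Genes that act with these receptors were taken from 7 lists by role, with the brightest probe set for each gene. Of 112 listed genes, 101 had a probe set of their own and 96 passed the signal filter. Of these, 2 were higher and 3 lower in AGS.W by 2-fold or more, which is 5.21% beside 3.78% of all genes past the filter. The median difference of the 96 was -0.01, and that of all genes past the filter was also -0.01. The lists were thus near the background, and no statement about them as a whole is made from these counts.

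Of the other EGF-type ligands, the neuregulins and EPGN, 4 of 5 were measured and 1 passed the filter. This was NRG1, which codes for a ligand of ERBB3 and ERBB4, with 4.90 (AGS.W) and 5.32 (AGS.veh), a difference of -0.42. NRG2, NRG3 and NRG4 lay below the median on both arrays, with differences of 0.00, 0.00 and 0.17. Of 9 genes for shedding and processing of the ligands, all passed and none was 2-fold apart. The largest differences among them were 0.43 for ADAM17, the main sheddase of the EGFR ligands, from 8.55 (AGS.W) and 8.12 (AGS.veh), and -0.89 for RHBDF2, a rhomboid protein that matures ADAM17, from 4.72 and 5.61.

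Of 21 adaptors and first signalling proteins past the filter, none was 2-fold apart, and the largest differences were 0.65 for the transcription factor STAT5B and -0.56 for the exchange factor VAV2. GRB2 and SHC1, the adaptors that bind phosphorylated receptors, had 0.02 and 0.08. In the RAS-RAF-MEK-ERK list 9 of 15 genes had a probe set, all passed and none was 2-fold apart. The largest differences there were 0.60 for NF1, a RAS inhibitor, which lay below the median in AGS.veh at 3.64, and -0.49 for HRAS, with 7.56 (AGS.W) and 8.05 (AGS.veh). GRB2 and SHC1, and ERRFI1, LRIG1, ETV5, EGR1, IER3, DUSP4, DUSP5, DUSP6 and EPHA2 named below, were chosen after their values were seen.

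Feedback and receptor inhibitors had a median difference of -0.21 over the 18 that passed, with 6 higher and 12 lower in AGS.W. The median of all genes past the filter was -0.01. These signs rest on the brightest probe set of each gene and are not read as a result about the inhibitors. SOCS3, an inhibitor of cytokine and growth factor receptors, was the only gene of this list at least 2-fold apart, with 6.98 (AGS.W) and 5.77 (AGS.veh), or 2.31-fold higher. Its other 3 probe sets past the filter had differences of 0.45, 0.55 and -0.24, and the mean of all 4 was 0.49. Of the direct inhibitors of the receptors, ERRFI1 had 8.98 in AGS.W and 8.32 in AGS.veh, while LRIG1 had 5.04 and 5.96. These differ by 0.65 and -0.93, and the mean over the 4 LRIG1 probe sets was -0.31. In the list of receptor trafficking and turnover, 18 genes passed and CAV1, a coat protein of caveolae, was 2.02-fold lower. Both CAV1 probe sets were lower in AGS.W, at 7.52 against 8.53 and at 6.86 against 7.88, and with a lowess correction the difference of -1.01 became -0.98, below 2-fold.

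Of 20 transcripts known to be induced by EGFR and ERK signalling that passed the filter, 1 was higher and 2 were lower in AGS.W by 2-fold or more, with a median difference of -0.05. The immediate early gene FOS had 9.21 in AGS.W and 7.88 in AGS.veh on its single probe set, or 2.52-fold higher. ETV5, an ETS factor, stood at the threshold with a difference of 0.998, but the mean of its 5 probe sets was 0.45. EGR1 and IER3 had 0.77 and 0.94, while DUSP4 and EPHA2 had -0.67 and -0.50. DUSP5 and DUSP6, listed with DUSP4, had 0.70 and 0.06. By sign alone, 9 of the 20 were higher and 11 lower in AGS.W. Cyclin D1 (CCND1), which drives entry into S phase, was lower on both probe sets, at 6.66 against 8.46, or 3.50-fold, and at 5.95 against 7.85. HMGA2, a chromatin protein, had 3.61 in AGS.W and 6.68 in AGS.veh on 208025_s_at, where the AGS.W signal lay below the median. Its only other probe set past the filter was dim, at 4.03 on both arrays, next to the array medians. The rest lay below the median on both arrays, and the mean of all 9, dim ones included, was -0.51. Genes of this list thus lay on either side.

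**Figure D3:**
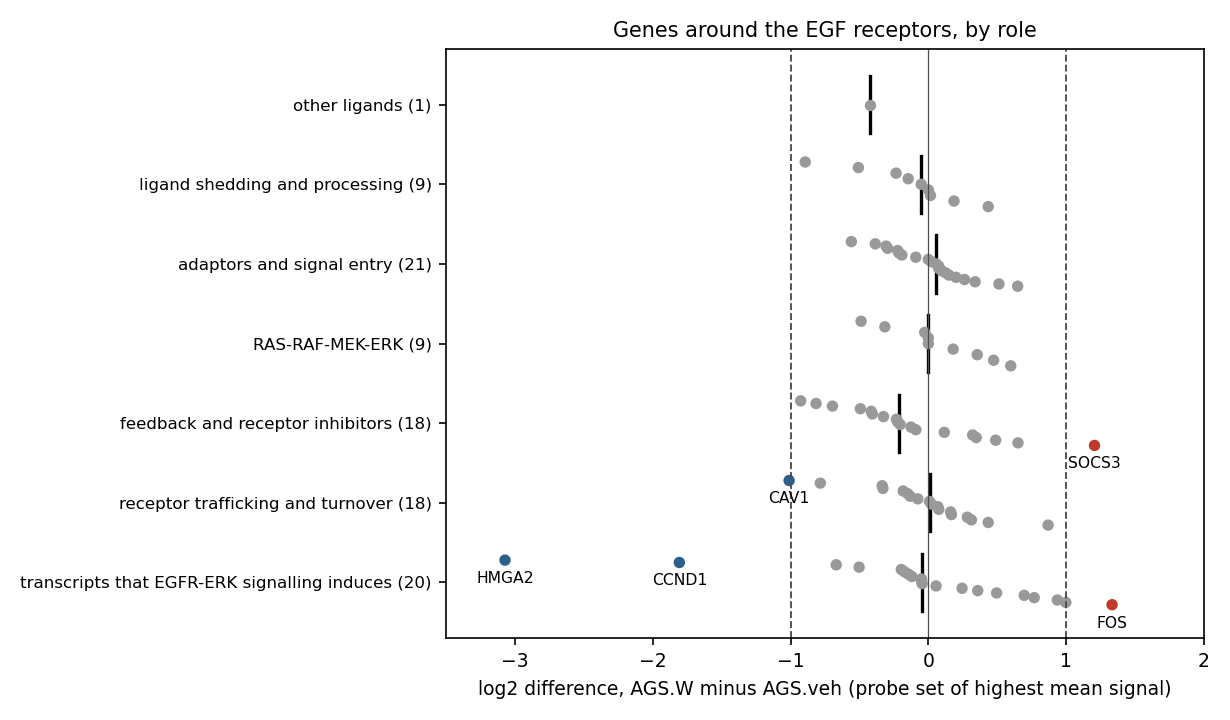
Log2 difference AGS.W minus AGS.veh (horizontal axis) of each gene that passed the signal filter in 7 lists by role, with the number of genes in brackets, 1 array per line. Points are genes, spread vertically by rank, black bars are list medians and dashed lines mark 2-fold. SOCS3 and FOS lie beyond the upper line and CAV1, CCND1 and HMGA2 beyond the lower.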

How the data were processed

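Arrays (Affymetrix U133 Plus 2.0) were run on RNA of AGS.W and AGS.veh cells, 1 for each line. The authors deposited a log2 signal for every probe set, normalized between the arrays beforehand. Per the labels, RMA and MAS5 were among the tools, without role or version, and the sources used here do not give the background correction or the probe set definitions. Nothing was renormalized for the values in the text.

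Differences were computed for 54613 probe sets, with 62 control probe sets left out. The platform annotation of 2016 gave 41091 of them 1 gene, 1801 several and 11721 none. Probe sets of several genes were not used, and none of them named a member. Current symbols came from RefSeq (GRCh38.p14) by gene identifier, as did the promoter sequences. The probe set of highest mean signal stood for its gene. The threshold was 2-fold, as in the methods of the paper, whose FDR needs replicates. Members, lists and markers were chosen with earlier results of these data known, and the lists were written from general knowledge. Named were all members, list genes at least 2-fold apart (up to 3 in each direction), and in lists without any the largest difference in each direction, besides genes said to be chosen after their values were seen. Motifs and windows were also chosen then. The alternatives tried were quantile normalization, median centring, a lowess curve (span 0.3), thresholds of 1.5-fold and 3-fold, other signal filters, the mean of all probe sets, and no _x_at or _s_at probe sets. The procedure was run on simulated arrays, with the same large change added to every probe set of genes that reached both medians. That run does not cover dim signal, changes near 2-fold or probe sets of a gene that disagree. Tools were Python 3.11.15 with matplotlib 3.10.9, statsmodels 0.14.6, numpy 2.4.6 and pandas 2.3.3.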

Additional observations from a re-analysis of the deposited data

How the results depend on the processing

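No paired analysis was possible because there was a single array for either line, which also left no replicate to omit. The planned offset was not run, since the values were already log2, and ERBB2 has no probe set outside the _x_at and _s_at types. Scaling moved no member gene by more than 0.0337 on the log2 scale. Of 44 alternative values of member genes, 40 moved by less than the robust spread of differences among probe sets of similar signal, and 4 moved further. ERBB3, the single member gene at least 2-fold apart, kept its sign. As the mean of all probe sets EGFR had 0.0006 in place of -0.42 and ERBB3 had 0.87 in place of 1.88. That mean also turned the small differences of ERBB2 (0.06 to -0.06) and EREG (0.08 to -0.07). Without _x_at and _s_at types EGFR had -0.84 and TGFA -0.35 in place of 0.24. As the mean of probe sets 0 member genes and 3 list genes were at least 2-fold apart, in place of 1 and 5, with 81 list genes past the filter in place of 96. SOCS3 and HMGA2 were the list genes lost. At 1.5-fold, 5 member probe sets, 2 member genes (ERBB3 and HBEGF) and 19 list genes were apart, and at 3-fold 1 member probe set, 1 member gene and 2 list genes. Of the 25 alternative counts 18 stayed within 1.5 times, the count of member genes at 3-fold among them. Over all genes, 484 were at least 2-fold apart, 279 with the mean of probe sets, 1795 at 1.5-fold and 113 at 3-fold. The share of higher genes was 48.6% and at most 51.3% under these alternatives. HMGA2 had 0.00 without the _x_at and _s_at types, on a dim probe set next to the array medians. With 1 array per line, signal below the array median limits what can be said of ERBB4, EGF, EREG, TGFA and BTC. AREG had no probe set, and nothing can be said of it.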
